A study of Mus musculus with 20 samples.

Results

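The genes described here are 10 listed genes of the major histocompatibility complex (MHC) class I antigen-presentation pathway and the immunoproteasome, taken by symbol from a table of 14776 genes measured in mouse epididymal white adipose tissue (eWAT): H2-K1, H2-D1, B2m, Tap1, Tap2, Tapbp, Psmb8, Psmb9, Psmb10 and Nlrc5. All 10 were in the table and all 10 passed the filter on low values in every comparison. RNA from 20 male C57BL/6J mice was sequenced, 1 library a mouse, in a study of whether alkaloids of mulberry twig act on adipose tissue of obese mice. The mice were 6 weeks old at the start and were fed for 14 weeks before treatment. The normal chow group (NC, 6 mice) received maintenance feed. The HFD group (7 mice) received a high-fat diet with 60% of energy from fat, with saline by gavage in the last 6 weeks. The SZ-A group (7 mice) received the same diet, with Ramulus Mori (Sangzhi) alkaloids by gavage at 400 mg/kg a day in the last 6 weeks. Both groups stayed on the high-fat diet during treatment, until the end of the experiment. All mice were fasted overnight before eWAT was taken. Values are FPKM, fragment counts scaled to gene length and library depth, and each library held between 13567667 and 19388628 reads on the 14776 genes of the table.

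MHC class I molecules display peptides from inside the cell to CD8 T cells and are found on nearly all nucleated cells. Peptides are cut from proteins by the proteasome, carried into the endoplasmic reticulum by the TAP transporter, and loaded with the help of tapasin onto a heavy chain paired with beta-2-microglobulin. In immune cells, and in other cells exposed to interferon-gamma, the catalytic proteasome subunits Psmb5, Psmb6 and Psmb7 are replaced by Psmb8, Psmb9 and Psmb10, which makes the immunoproteasome. Nlrc5 is the transcriptional activator of class I genes. Obese adipose tissue is known for its infiltrate of macrophages and T cells, so a whole-tissue level joins the RNA of adipocytes, vessels and immune cells.

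Before the results, 3 libraries need naming. NC replicate 6 stood apart from all other mice. Its median correlation with them over all genes was 0.697, against 0.852 or more for every other mouse. The 10 adipocyte markers summed to 261.5 FPKM in it, against 4356 to 10474 FPKM in the other NC mice. The 10 endothelial markers summed to 22.2 FPKM in it, against 238.3 to 611.3 FPKM, and the epididymal gene Adgrg2 was at 420.4 FPKM, against 5.69 to 30.0 FPKM. Thus the label of this library as fat tissue was not borne out by its adipocyte markers, and in comparisons with NC the values of the 10 genes and the counts of the gene lists are given with and without it. SZ-A replicate 5 had 11.6% of its reads on mitochondrial genes, against 1.67% to 5.11% in the other SZ-A mice, and SZ-A replicate 2 had Adgrg2 at 103.0 FPKM, against 1.80 to 10.3 FPKM in the other SZ-A mice.

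The genes lay in few places of the genome (GRCm38, GENCODE M21 annotation, all protein-coding). On chromosome 17, in the MHC, were Tapbp (chr17:33915899-33929292, plus strand), H2-K1 (chr17:33996017-34000347, minus strand), Psmb9 (chr17:34181987-34187764, minus strand), Tap1 (chr17:34187553-34197225, plus strand), Psmb8 (chr17:34197721-34201454, plus strand), Tap2 (chr17:34203527-34216321, plus strand) and H2-D1 (chr17:35262730-35267499, plus strand). Psmb9 and Tap1 are divergent neighbours, and their RefSeq start sites were 226 bases apart. Nlrc5 (chr8:94434356-94527272, plus strand) and Psmb10 (chr8:105935735-105938444, minus strand) were on chromosome 8, and B2m (chr2:122147686-122153083, plus strand) was on chromosome 2. The values are summed over exons, and nothing used here states that reads were counted by strand. Exons of other genes covered 29.0% of the exon bases of Tapbp, 18.5% of those of Tap2, 14.7% of Psmb8, 5.79% of Psmb9 and 3.87% of Tap1, so some reads there cannot be assigned with certainty. H2-K1 and H2-D1 belong to a family of near copies, and 0.957% and 3.59% of their 100-base windows also occurred in other genes.

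The upstream sequences are shown because the class I genes share letters that class I regulators are known to read. RefSeq promoter windows (GRCm38.p6, 250 bases before to 50 after the start) were found for 8 of the 10 genes, all except Tap2 and Nlrc5. The first pair of lines runs from position -190 to -2 relative to the RefSeq start of H2-K1 (chr17:34000349-34000537, minus strand) and of B2m (chr2:122147497-122147685, plus strand), 189 bases each. Capitals mark the letters searched on both strands: GGGATTCCC (a kappa-B site), GAANNGAAA or AAANNGAAA (interferon-stimulated response elements), TGACG (the core of a cyclic AMP response element) and CCAAT, which reads ATTGG on the other strand.
H2-K1: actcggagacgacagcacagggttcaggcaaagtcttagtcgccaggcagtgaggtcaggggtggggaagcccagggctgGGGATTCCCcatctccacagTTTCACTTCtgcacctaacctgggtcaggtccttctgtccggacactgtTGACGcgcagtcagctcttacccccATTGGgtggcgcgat
B2m: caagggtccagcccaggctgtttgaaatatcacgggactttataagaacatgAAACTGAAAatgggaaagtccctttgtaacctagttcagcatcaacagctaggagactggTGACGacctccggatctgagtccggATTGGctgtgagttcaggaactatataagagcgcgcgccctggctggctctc

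In H2-K1, H2-D1 and B2m, TGACG and ATTGG began exactly 25 bases apart, a spacing that was looked for after these windows had been read. The stretches that hold the pair are H2-K1 (chr17:34000359-34000388, minus strand), H2-D1 (chr17:35262993-35263022, plus strand) and B2m (chr2:122147609-122147638, plus strand), 30 bases each, and the pair is in capitals.
H2-K1: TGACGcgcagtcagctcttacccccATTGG
H2-D1: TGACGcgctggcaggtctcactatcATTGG
B2m: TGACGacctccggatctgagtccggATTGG
The pair at this spacing was present in 31 of 32851 promoter windows (0.0944%), although TGACG alone was in 20.8% of them and CCAAT in 37.4%. None of the windows of the other 5 genes held it. The kappa-B letters GGGATTCCC were in H2-K1 and H2-D1, and in 0.353% of all windows. They are shown with 10 flanking bases on each side, for H2-K1 (chr17:34000439-34000467, minus strand) and for H2-D1 (chr17:35262914-35262942, plus strand, where a longer GENCODE transcript has its 5′ UTR).
H2-K1: cccagggctgGGGATTCCCcatctccaca
H2-D1: cccagggctgGGGATTCCCcatctcctca
From these stretches to the base before the H2-K1 start, 107 of 119 bases were identical between H2-K1 and H2-D1 without gaps, and GGGATTCCC began 69 bases before TGACG in both. An interferon response element was found as GAANNGAAA in H2-K1 and H2-D1 (7.52% of all windows) and as AAANNGAAA in B2m (10.6% of all windows). Psmb8 held TTCNNNGAA, the letters of a gamma-activated site, which 8.30% of all windows also held. These matches describe letters and not sites in use.

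HFD was compared with NC to ask what diet-induced obesity changed. 4 of the 10 genes were higher in HFD than in NC and 0 were lower, by limma on log2(FPKM + 1) with Benjamini-Hochberg adjustment over all 14706 genes tested and a threshold of 0.05. They were H2-D1 and all 3 immunoproteasome subunits. Over all genes tested, 21.0% were called higher and 20.1% lower. The fold changes were moderate, since 0 of the 10 genes also passed a log2 fold change of 1.5. This is the threshold in the study's methods, and 7.97% of all genes passed it. The text of the study's results gives a fold change above 1.5 instead, which H2-D1, Psmb8 and Psmb10 passed and Psmb9 did not. All 10 fold changes were above 0, with a median of 0.46, beside -0.04 over all genes tested. Without NC replicate 6, 4 of the 10 genes were again called, with a median of 0.32, and 22.6% of all genes were called higher. When single mice were left out the count ranged from 3 to 7, with 7 without NC replicate 4. The share over all genes is given here only for the fit without NC replicate 6. In 3 of the 10 genes (H2-D1, Psmb8 and Psmb10) the groups did not overlap, which held for 20.5% of all genes. More cells of a type and more RNA per cell cannot be told apart in whole tissue.

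**Figure D1:**
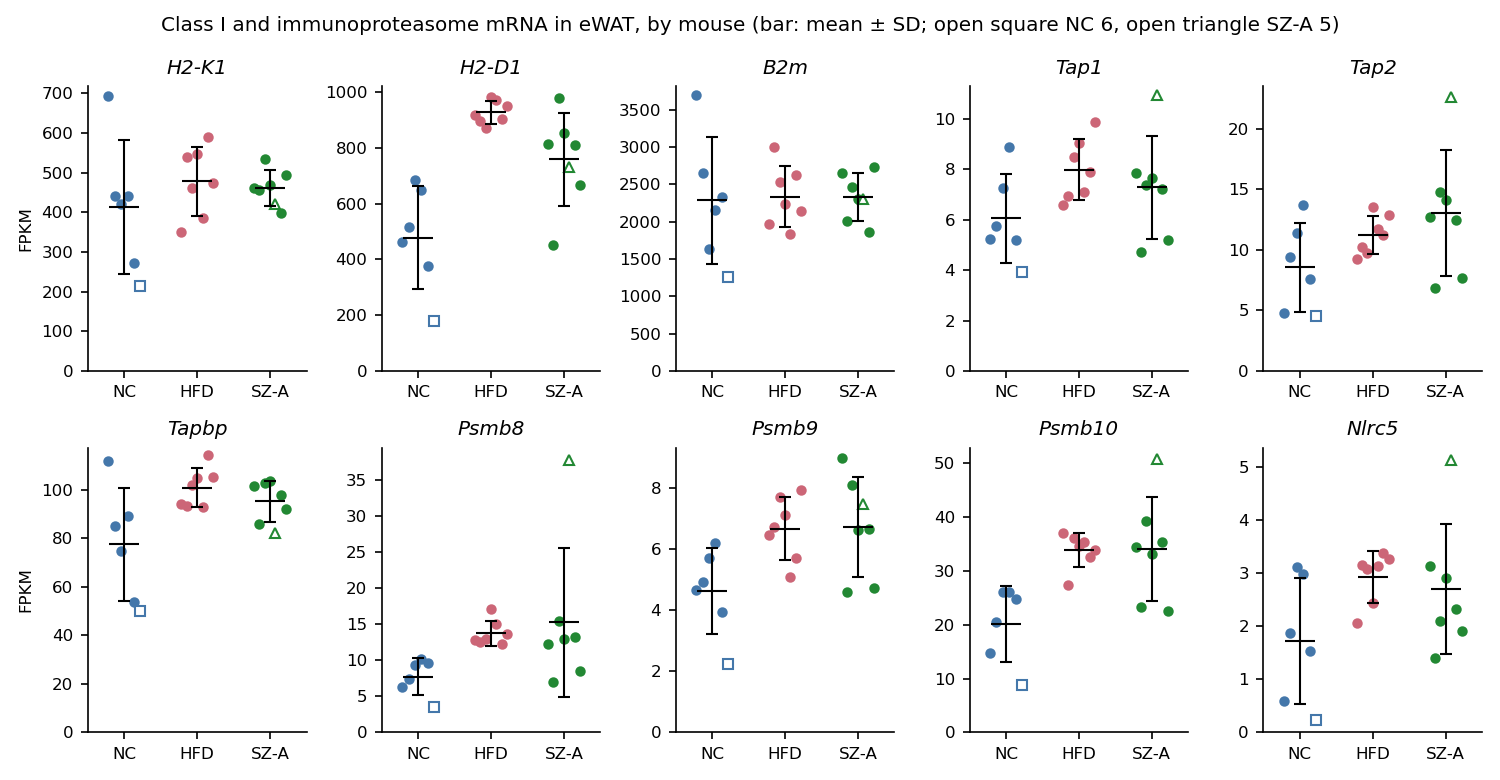
FPKM of each of the 10 genes in 6 NC, 7 HFD and 7 SZ-A mice, 1 point a mouse, with black bars for the mean ± SD. Every HFD mouse lay above every NC mouse for H2-D1, Psmb8 and Psmb10, NC replicate 6 (open square) was the lowest NC mouse in all 10 genes, and SZ-A replicate 5 (open triangle) was the highest mouse for Psmb8 at 37.7 FPKM.

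H2-D1 encodes one of the classical class I heavy chains. Its level ran from 178.5 FPKM (median 490.1, highest 683.6) in NC, from 870.4 FPKM (median 918.8, highest 982.4) in HFD, and from 453.0 FPKM (median 812.6, highest 978.7) in SZ-A. The HFD mice lay in a narrow range above all NC mice, and the SZ-A mice spread from within the NC range to within the HFD range. Group means were 478.3 ± 185.9 FPKM (SD, n = 6) for NC, 927.9 ± 42.1 FPKM (SD, n = 7) for HFD and 759.2 ± 166.2 FPKM (SD, n = 7) for SZ-A. H2-D1 was higher in HFD than in NC by a log2 fold change of 1.08 ± 0.29 (SE, limma adjusted p = 0.00888), and by 0.82 without NC replicate 6 (limma adjusted p = 0.00296). The difference between SZ-A and HFD was -0.32 ± 0.18 (SE, limma adjusted p = 0.207), with a 95% confidence interval from -0.71 to 0.06. The lowest SZ-A mouse was replicate 2, at 453.0 FPKM. In fits that left out mice the difference ran from -0.39 to -0.18, with limma adjusted p-values of at least 0.156.

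H2-K1, the other classical heavy chain, did not share this pattern. Its level ran from 213.0 to 694.4 FPKM (median 430.6) in NC, from 349.3 to 589.2 FPKM (median 474.9) in HFD and from 397.5 to 534.1 FPKM (median 461.0) in SZ-A, so the groups overlapped throughout. Its log2 fold change was 0.29 ± 0.26 in HFD against NC (SE, limma adjusted p = 0.405), 0.12 without NC replicate 6 (limma adjusted p = 0.701), and -0.03 ± 0.15 in SZ-A against HFD (SE, limma adjusted p = 0.893).

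The 2 heavy chains were therefore set against each other within each mouse, a test chosen after their values had been seen. H2-D1 made up from 40.1% to 61.9% (median 56.1%) of the summed FPKM of the pair in NC, from 60.5% to 72.5% (median 65.4%) in HFD and from 49.9% to 67.1% (median 63.8%) in SZ-A. The NC and HFD ranges met only at their ends. The log2 ratio of H2-D1 to H2-K1 was higher in HFD than in NC by 0.79 ± 0.23 (SE, exact two-sided permutation p = 0.00233, adjusted p = 0.00699 over the 3 comparisons). Without any one mouse this difference stayed between 0.63 and 0.89, with adjusted p-values of at most 0.0152. Between SZ-A and HFD it was -0.29 (exact permutation p = 0.124), and between SZ-A and NC it was 0.50 (exact permutation p = 0.0676, adjusted p = 0.101), or 0.61 without SZ-A replicate 2 (adjusted exact permutation p = 0.0195).

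B2m, the light chain of class I molecules, was the most abundant of the 10 genes and ranked 9th by median level of 14773 symbols. It ran from 1259 to 3696 FPKM (median 2243) in NC, from 1834 to 3006 FPKM (median 2240) in HFD and from 1857 to 2736 FPKM (median 2304) in SZ-A. The highest and the lowest B2m levels of all 20 mice were both in NC. The log2 fold change was 0.10 ± 0.32 in HFD against NC (SE, limma adjusted p = 0.833), with a 95% confidence interval from -0.58 to 0.77, and its sign turned to -0.06 without NC replicate 6. H2-D1 ranked 33rd and H2-K1 55th, followed at a distance by Tapbp (422nd), Psmb10 (1379th), Psmb8 (3713th), Tap2 (4033rd), Tap1 (5704th), Psmb9 (6283rd) and Nlrc5 (9502nd).

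Tap1 and Tap2 encode the chains of the peptide transporter, and Tapbp encodes tapasin, which holds the class I molecule to it. Tap1 ran from 3.93 to 8.89 FPKM (median 5.51) in NC, from 6.58 to 9.86 FPKM (median 7.88) in HFD and from 4.72 to 11.0 FPKM (median 7.40) in SZ-A. Tap2 ran from 4.50 to 13.7 FPKM (median 8.47) in NC, from 9.29 to 13.5 FPKM (median 11.2) in HFD and from 6.85 to 22.6 FPKM (median 12.7) in SZ-A. Tapbp ran from 50.1 to 112.0 FPKM (median 79.9) in NC, from 92.9 to 114.2 FPKM (median 101.8) in HFD and from 82.1 to 103.6 FPKM (median 97.7) in SZ-A. The HFD mice were close together in each gene and lay within or just above the upper part of the NC range. None passed the test in HFD against NC, where the log2 fold changes were 0.37 for Tap1, 0.44 for Tap2 and 0.43 for Tapbp (limma adjusted p = 0.0694, 0.125 and 0.0710). Without NC replicate 6 these values were 0.28, 0.30 and 0.32.

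Psmb8, the chymotrypsin-like subunit of the immunoproteasome, ran from 3.54 to 10.2 FPKM (median 8.34) in NC, from 12.2 to 17.1 FPKM (median 12.9) in HFD and from 6.97 to 37.7 FPKM (median 13.0) in SZ-A. All HFD mice were above all NC mice, and the SZ-A mice ranged on both sides of HFD. Psmb8 was higher in HFD than in NC by a log2 fold change of 0.81 ± 0.19 (SE, limma adjusted p = 0.00419), and by 0.63 without NC replicate 6 (limma adjusted p = 0.00147). Against HFD, SZ-A differed by -0.03 ± 0.26 (SE, limma adjusted p = 0.945), and by -0.27 without SZ-A replicate 5 (limma adjusted p = 0.202), the mouse at 37.7 FPKM.

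Psmb10, the trypsin-like subunit, ran from 8.77 to 26.1 FPKM (median 22.7) in NC, from 27.4 to 37.0 FPKM (median 34.5) in HFD and from 22.6 to 50.7 FPKM (median 34.3) in SZ-A. Its NC and HFD groups were apart by a small gap, while SZ-A covered the whole HFD range. The log2 fold change was 0.80 ± 0.22 in HFD against NC (SE, limma adjusted p = 0.00995) and 0.59 without NC replicate 6 (limma adjusted p = 0.00455).

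Psmb9, the third inducible subunit, ran from 2.25 to 6.20 FPKM (median 4.81) in NC, from 5.08 to 7.94 FPKM (median 6.73) in HFD and from 4.62 to 9.0 FPKM (median 6.66) in SZ-A. The groups overlapped, and the call was the least firm of the 4. Its log2 fold change in HFD against NC was 0.48 ± 0.17 (SE, limma adjusted p = 0.0385), and leaving out single mice gave 0.33 to 0.56 with limma adjusted p-values from 0.0225 to 0.0749, under 0.05 in 5 of 13 fits. The call was lost without NC replicate 1, 2 or 5 and without HFD replicate 1, 2, 3, 4 or 7.

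Nlrc5 was the least abundant of the 10 genes. It ran from 0.226 to 3.12 FPKM (median 1.70) in NC, from 2.06 to 3.38 FPKM (median 3.14) in HFD and from 1.40 to 5.13 FPKM (median 2.33) in SZ-A. The NC mice were scattered over the whole range, and the lowest value rested on 28 reads, in NC replicate 6. The log2 fold change in HFD against NC was 0.65 ± 0.26 (SE, limma adjusted p = 0.0558), and 0.45 without NC replicate 6 (limma adjusted p = 0.0940).

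**Figure D2:**
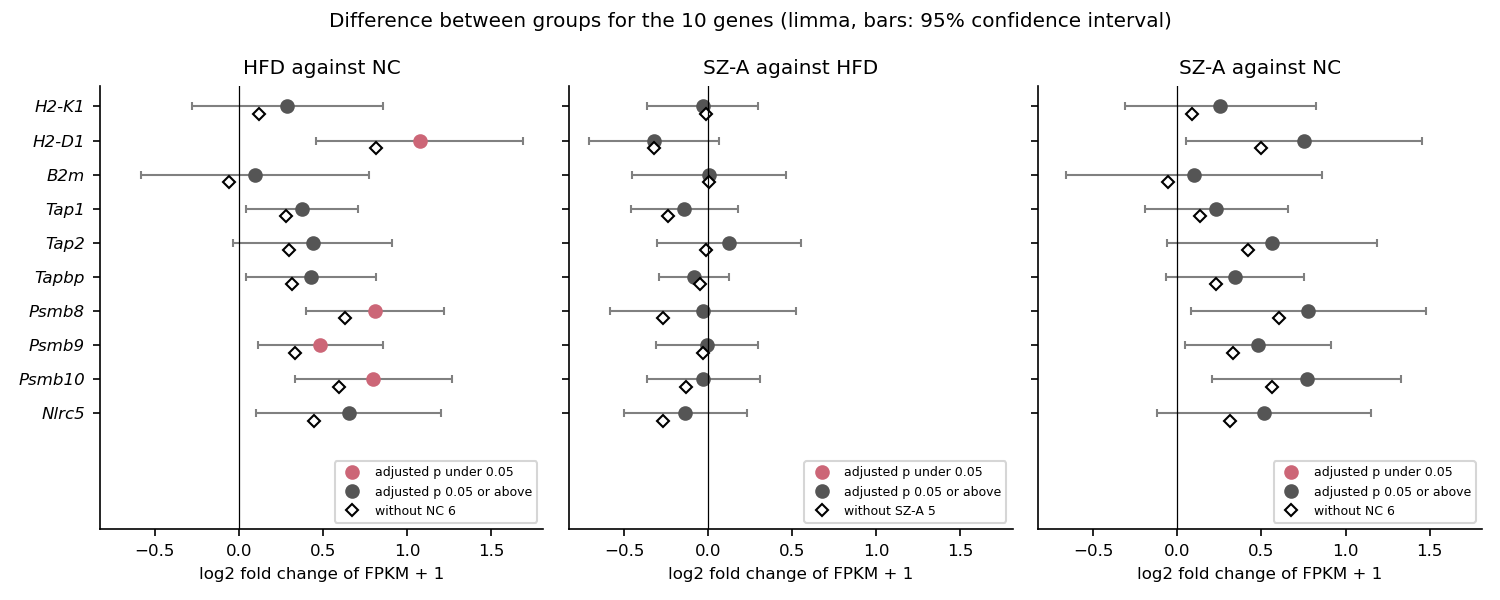
Log2 fold change of FPKM + 1 for the 10 genes in HFD against NC, SZ-A against HFD and SZ-A against NC, from limma, with 95% confidence intervals (grey bars), red points for adjusted p under 0.05 and open diamonds for the fit without NC replicate 6 or, in the middle panel, without SZ-A replicate 5. Red points occur only in HFD against NC, for H2-D1, Psmb8, Psmb9 and Psmb10, and the middle panel centres on 0.

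SZ-A was compared with HFD to ask whether the alkaloids changed the obese tissue. 0 of the 10 genes changed, by limma and by limma-voom on recovered reads, while 9.47% of the 14695 genes tested were called higher and 13.3% lower. At an unadjusted p under 0.05 the count was also 0. The fold changes were small and mixed in sign, with 8 below 0 and 2 above, and their median was -0.03 beside 0.03 over all genes tested. None passed the log2 fold change of 1.5, as 0.864% of all genes did, and in none were the groups apart, as in 6.08% of all genes. The 95% confidence intervals of the 10 genes lay between -0.71, the lower limit of H2-D1, and 0.56, the upper limit of Tap2. The narrowest interval was that of Tapbp, from -0.29 to 0.12. Without SZ-A replicate 5 the count was again 0, with a median of -0.09, and without SZ-A replicates 2 and 5 together it was 0.

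SZ-A was also compared with NC. 0 of the 10 genes passed limma's adjusted threshold, where 4.15% of the 14718 genes tested were called higher and 0.455% lower. All 10 fold changes were above 0, with a median of 0.50, and 4 genes (H2-D1, Psmb8, Psmb9 and Psmb10) were under an unadjusted p of 0.05. The largest were 0.78 ± 0.33 for Psmb8, 0.77 ± 0.26 for Psmb10 and 0.75 ± 0.33 for H2-D1 (SE, limma adjusted p = 0.211, 0.118 and 0.229). None passed the log2 fold change of 1.5 (1.79% of all genes) and none had groups apart (3.57% of all genes). Without NC replicate 6 the count was 0, the median was 0.32, and these 3 values were 0.60, 0.56 and 0.49. These comparisons share mice, HFD mice in the first and second and NC and SZ-A mice with this one, so their values are given side by side and are not independent.

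To set the inducible subunits against those they replace, each was divided by its constitutive partner within a mouse. The constitutive subunits themselves did not pass the test in any comparison, with log2 fold changes in HFD against NC between -0.01 for Psmb7 and 0.20 for Psmb6. Psmb8 made up from 3.09% to 16.2% (median 9.39%) of the Psmb8 and Psmb5 sum in NC, from 9.41% to 18.7% (median 16.2%) in HFD and from 6.79% to 42.2% (median 16.1%) in SZ-A. Psmb9 made up from 2.69% to 12.6% (median 7.54%) of its pair with Psmb6 in NC, from 5.28% to 12.4% (median 9.77%) in HFD and from 6.66% to 15.5% (median 9.70%) in SZ-A. Psmb10 made up the larger share of its pair with Psmb7, from 40.7% to 72.3% (median 55.9%) in NC, from 66.5% to 71.8% (median 68.4%) in HFD and from 59.9% to 94.8% (median 68.0%) in SZ-A. The medians of all 3 pairs were higher in HFD than in NC, but the groups overlapped in each.

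None of the 9 ratio tests passed after adjustment, and 3 were under 0.05 before it, by exact permutation. The nearest was Psmb10 to Psmb7 in HFD against NC, where the log2 ratio was higher by 0.81 ± 0.28 (SE, exact two-sided permutation p = 0.00932, adjusted p = 0.0839). Psmb8 to Psmb5 was higher by 0.81 ± 0.39 (SE, exact permutation p = 0.0490, adjusted p = 0.147) and Psmb9 to Psmb6 by 0.28 ± 0.34 (SE, exact permutation p = 0.416, adjusted p = 0.624). These 3 differences were 0.66, 0.54 and 0.04 without NC replicate 6. Between SZ-A and HFD the differences were 0.12, 0.10 and 0.25, with exact permutation p-values of 0.800, 0.656 and 0.868. Without NC replicate 3, 2 of the 9 tests passed, Psmb10 to Psmb7 in HFD against NC (1.02) and in SZ-A against NC (1.27), each with an adjusted exact permutation p of 0.0114. The highest shares of Psmb8 and Psmb10 were both in SZ-A replicate 5, where Psmb7 was at 2.77 FPKM, against 13.7 to 20.1 FPKM in the other SZ-A mice.

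**Figure D3:**
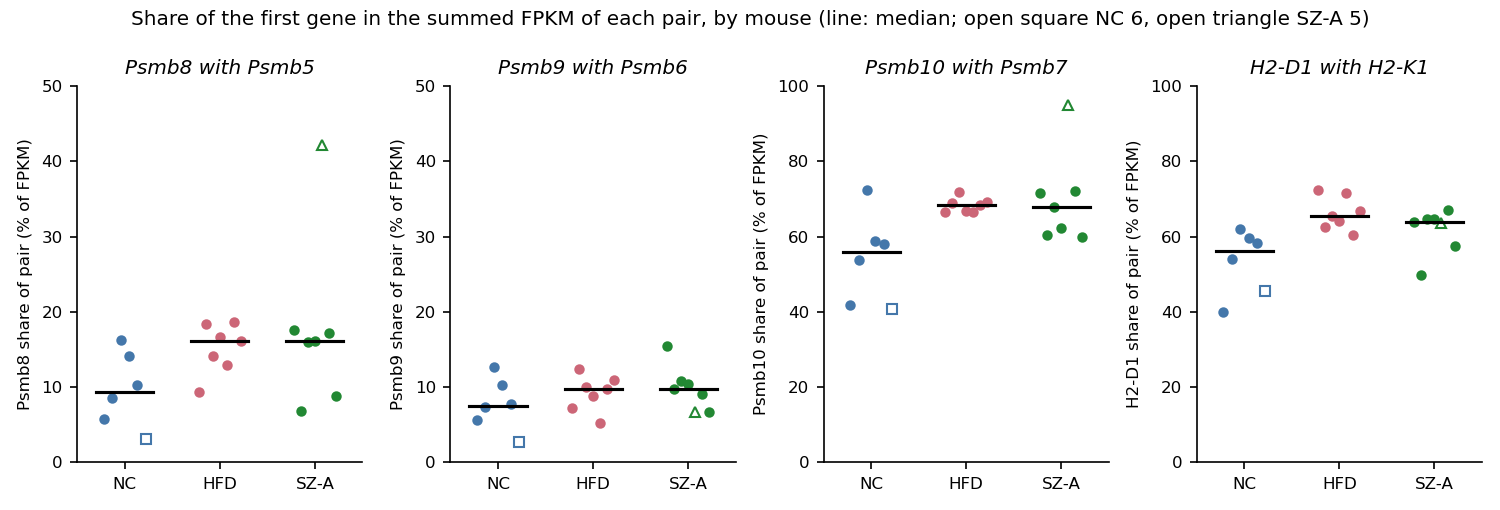
Share of Psmb8, Psmb9, Psmb10 and H2-D1 in the summed FPKM of their pair, in percent, with 1 point a mouse and a black line at the group median. The medians of HFD (16.2%, 9.77%, 68.4% and 65.4%) were above those of NC (9.39%, 7.54%, 55.9% and 56.1%), the points overlapped, and SZ-A replicate 5 (open triangle) stood alone at 42.2% for Psmb8 and 94.8% for Psmb10.

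Mice of one group also differed from each other in many of these genes at once. NC replicate 6 was the lowest NC mouse in all 10 genes, and SZ-A replicate 2 was below its group mean in all 10. Over the 20 mice, after subtraction of group means, 44 of the 45 gene pairs had a Pearson r above 0, with a median of 0.63. The closest pairs were Tap1 with Tap2 (0.92), H2-K1 with Tapbp (0.89) and Tap2 with Nlrc5 (0.88), and the least alike were B2m and Tap2 (-0.04). Pairs share libraries, and the agreement rested in part on NC replicate 6, since without it 30 of 45 pairs were above 0 and the median r was 0.44. The genes outside the list that most resembled the mean of the 10, among 12440 genes compared, were Gm14597 (r = 0.97), Rtl8a (0.97), Inka1 (0.96), Npdc1 (0.96) and Lims2 (0.95), and 0.90 to 0.95 without NC replicate 6.

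The rest of the pathway was read from lists chosen for what their genes do. Over all genes tested, 21.0% were called higher in HFD than in NC and 20.1% lower. Of 31 other class I and class I-like heavy chains, 16 were tested, and 5 were higher in HFD and 0 lower, with and without NC replicate 6. H2-M3 (log2 fold change 1.38) and H2-T23 (0.95), which are nonclassical chains that show peptides, were among them, as were H2-T24 (1.01), Procr (1.59), the endothelial protein C receptor, and Hfe (1.55), a regulator of iron uptake. Without NC replicate 6 these 5 values were 1.16, 0.90, 0.74, 1.24 and 1.12. H2-M3 lay between 1.53 and 7.56 FPKM in the NC mice, between 11.0 and 14.1 FPKM in the HFD mice and between 6.00 and 14.3 FPKM in the SZ-A mice. In SZ-A against HFD 2 of the 16 were lower and 0 higher, beside 13.3% and 9.47% of all genes. The 2 were H2-T23 and H2-M3, with log2 fold changes of -0.51 and -0.47 (limma adjusted p = 0.00907 and 0.0280).

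The next lists are set beside 21.0% of all genes higher and 20.1% lower in HFD against NC. In SZ-A against HFD these shares were 9.47% and 13.3%. Of 14 peptide trimming and loading partners, 0 were higher and 1 was lower in HFD (Lap3, a cytosolic aminopeptidase, -1.46). The size of the Lap3 difference and the counts of the list depended on NC replicate 6, where Lap3 was at 386.7 FPKM. Without that mouse Lap3 was still lower, at -0.88 (limma adjusted p = 0.000131). The list then had 2 genes higher (Calr 0.84 and Sec61a1 0.46) and 2 lower (Lap3 and Abcb9). Abcb9, a lysosomal peptide transporter, was the 1 gene of the list higher in SZ-A than in HFD (0.74), and 2 were higher without SZ-A replicate 5. Of 10 proteasome activator and assembly genes, 1 rose (Psme3, a nuclear activator subunit, 0.26) and 3 fell in HFD, among them the assembly chaperones Psmg1 (-0.72) and Psmg2 (-0.42). The counts were 1 and 2 without NC replicate 6. Psmg1 rose in SZ-A against HFD by 0.43. Of the other 20S subunits, 0 of 11 rose and 1 fell in HFD (Psma7, -0.67), a call that was lost without NC replicate 6 (-0.57, limma adjusted p = 0.0797), and none changed with SZ-A. Of 21 subunits of the 19S particle, which unfolds substrates, 4 rose, led by Psmd1 (0.61) and Psmd8 (0.56), and 2 fell. The numbers were the same without NC replicate 6, and neither exceeded the share over all genes. With SZ-A, Psmd4 rose by 0.35 and Psmd1 fell by 0.55 on the log2 scale.

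**Figure D4:**
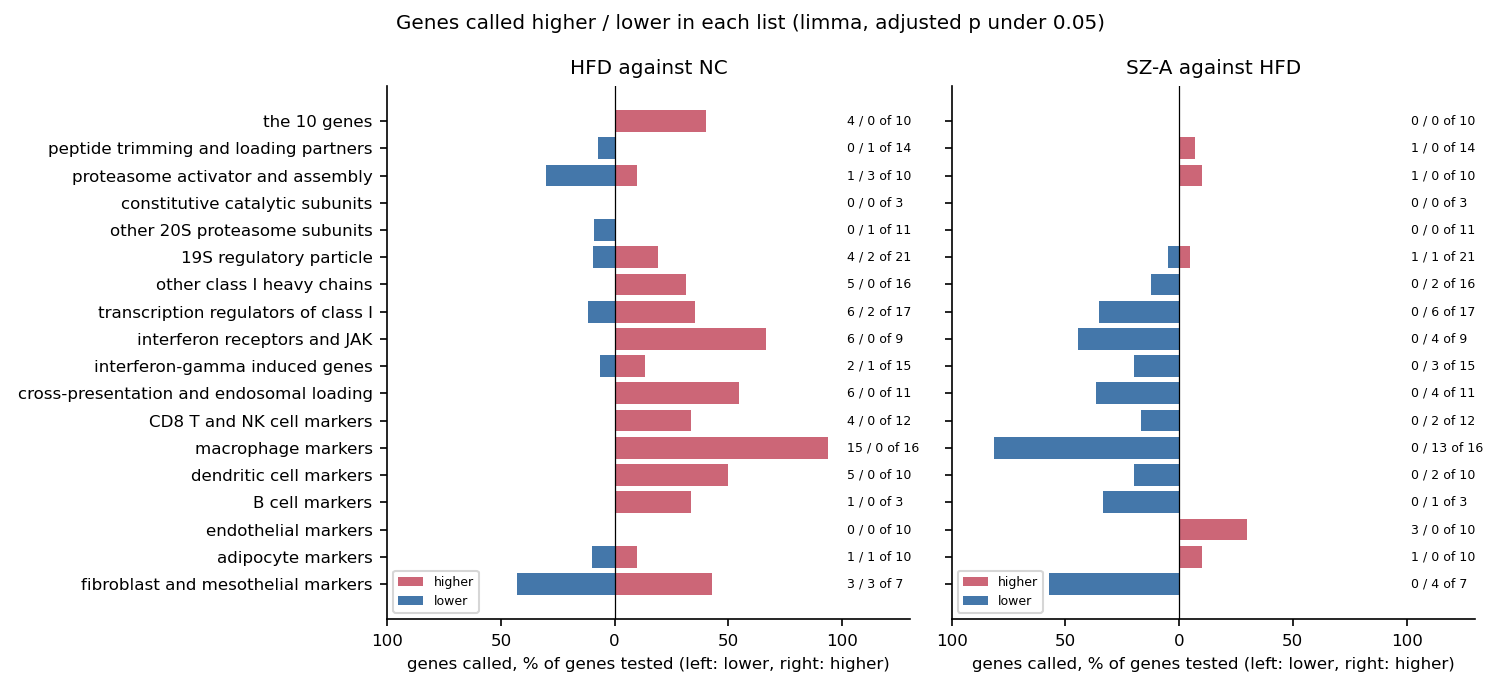
Percent of the tested genes of each list called higher (right, red) or lower (left, blue) in HFD against NC and in SZ-A against HFD by limma at an adjusted p under 0.05, with the counts higher / lower of those tested. The 10 genes had 4 higher of 10 and then 0 of 10, beside 15 of 16 macrophage markers higher and then 13 of 16 lower.

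Of 17 transcription regulators of class I, 6 were higher and 2 lower in HFD, with and without NC replicate 6, beside 21.0% of all genes higher and 20.1% lower. In SZ-A against HFD, 0 were higher and 6 lower (2 higher and 6 lower without SZ-A replicate 5), beside 9.47% and 13.3% of all genes. Irf8, an interferon regulatory factor of myeloid cells, was higher in HFD by 2.28 and lower in SZ-A by -0.92. Ciita, the class II activator, was higher by 1.60 and then lower by -0.77, and Nfkb1 was higher by 0.90 and then lower by -0.58. Nfya (1.29) and Nfyb (-0.93), subunits of the factor that binds CCAAT, went opposite ways in HFD. Of 9 interferon receptor and JAK genes, 6 were higher in HFD and 0 lower (6 and 1 without NC replicate 6). The largest fold change was that of Socs3 (1.73), a feedback inhibitor of JAK signalling, and the smallest adjusted p-values were those of Ifnar1 (1.15), Tyk2 (0.95) and Ifnar2 (0.99). In SZ-A against HFD 4 were lower, among them Ifnar1 (-0.69) and Ifngr2 (-0.58). The gene of interferon-gamma itself (Ifng) was not among the genes of the table, so its level could not be analysed here. Of 15 interferon-gamma induced genes tested, 2 were higher in HFD (Ubd 4.25, a ubiquitin-like modifier, and Cd274 0.95, the ligand of PD-1) and 1 was lower (Wars, -2.37), while in SZ-A Irgm1, Cxcl10 and Irgm2 were lower by -0.34, -0.37 and -0.37. Without NC replicate 6, 2 were higher and 2 lower in HFD. Most genes of this list, 12 of 15 with all mice, did not pass in HFD.

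Immune cell markers are set beside the shares of all genes. In HFD against NC, 21.0% of all genes were higher and 20.1% lower, and in SZ-A against HFD 9.47% and 13.3%. Of 16 macrophage markers, 15 were higher in HFD (14 without NC replicate 6) with a median log2 fold change of 3.19, and 13 were lower in SZ-A against HFD (15 without SZ-A replicate 5) with a median of -1.36. As for every gene of the table, none of the 16 was at 0 in any mouse. Their summed FPKM lay between 93.6 and 880.3 for NC, between 3707 and 9752 for HFD and between 1501 and 4968 for SZ-A, so the HFD mice lay above all NC mice, and SZ-A replicate 5 and replicate 6 reached the HFD range. Of 17 CD8 T and NK cell markers, 12 were tested, 4 were higher in HFD (3 without NC replicate 6; Tbx21, Nkg7, Ccl5 and Gzma) and 2 were lower in SZ-A (Cd8a -0.53 and Nkg7 -0.69). Gzma rested on only 1 to 12 reads in NC and 5 to 22 in HFD, and Tbx21 on 1 to 16 and 13 to 43. The Cd3 and Cd8 genes did not pass in HFD. The summed level of the 12 markers lay between 5.47 and 15.0 FPKM for NC, between 10.9 and 31.6 FPKM for HFD and between 8.24 and 25.6 FPKM for SZ-A. Dendritic cell markers had 5 of 10 higher in HFD (6 higher and 2 lower without NC replicate 6) and then 2 of 10 lower in SZ-A. Cross-presentation genes had 6 of 11 higher and then 4 of 11 lower, and B cell markers 1 of 3 higher and then 1 of 3 lower, and the HFD counts of both were the same numbers without NC replicate 6. The part of these cells in the levels of the 10 genes was not tested.

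Other cell markers are set beside the same shares of all genes. These were 21.0% higher and 20.1% lower in HFD against NC, and 9.47% and 13.3% in SZ-A against HFD. Of 10 adipocyte markers, 1 was higher and 1 lower in HFD with all mice, and 6 were lower without NC replicate 6, while 1 was higher in SZ-A. Of 10 endothelial markers, 0 changed in HFD (2 were lower without NC replicate 6) and 3 were higher in SZ-A. Of 7 fibroblast and mesothelial markers tested, 3 were higher and 3 lower in HFD, with and without NC replicate 6, and 4 were lower in SZ-A. Adgrg2, the single epididymal marker in the table, was lower in HFD than in NC by a log2 fold change of -3.50, or -2.67 without NC replicate 6. HFD replicate 1, which had the highest macrophage sum of all mice (9752 FPKM) and the lowest adipocyte sum of its group (1376 FPKM), was also the lowest HFD mouse for H2-K1, Tap1, Tap2 and Nlrc5, and the highest for Psmb10 (37.0 FPKM).

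**Figure D5:**
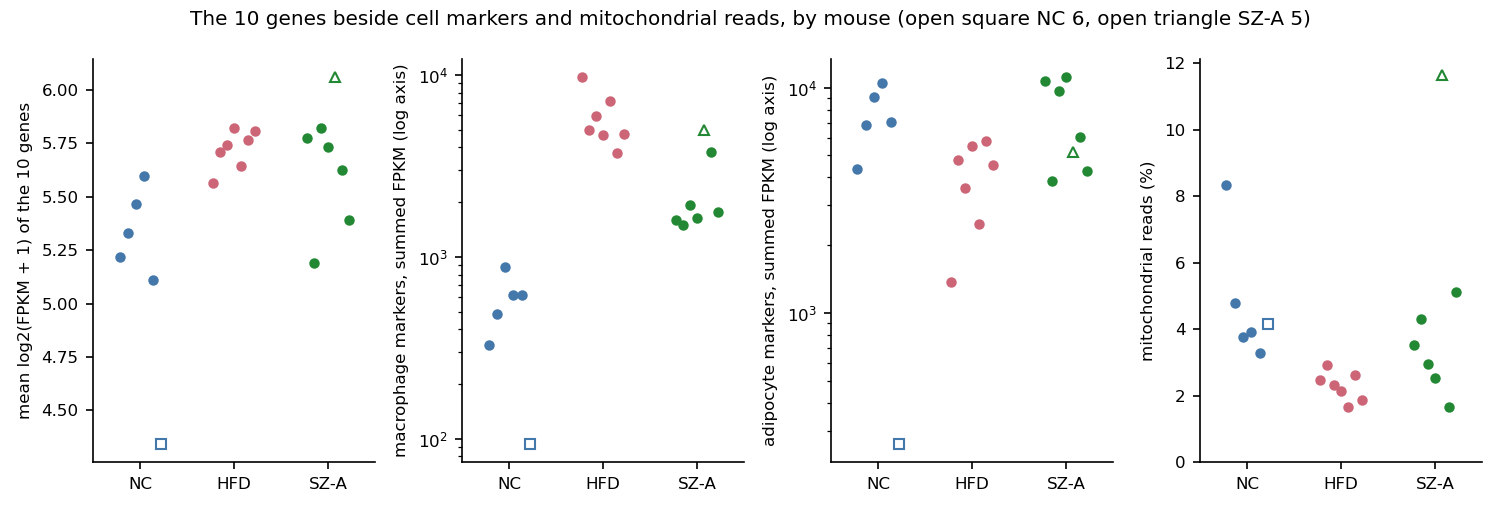
Mean log2(FPKM + 1) of the 10 genes, summed FPKM of 16 macrophage markers and of 10 adipocyte markers (both on log axes), and percent of reads on mitochondrial genes, with 1 point a mouse. The macrophage sums of HFD (3707 to 9752 FPKM) were above those of NC (93.6 to 880.3 FPKM), and NC replicate 6 (open square) had the lowest mean of the 10 genes and the lowest adipocyte sum (261.5 FPKM).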

How the data were processed

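eWAT RNA of 20 mice was sequenced on poly-A libraries. Per the study's methods and labels, the authors aligned 150-base paired reads with HISAT2 to GRCm38, counted them with featureCounts 1.5.0-p3 (submitters' processing notes) and deposited FPKM values for 14776 genes; replicates were not pooled. The filter that set those genes is not given in the sources used here. Of the gene IDs, 14770 were in GENCODE M21, and symbols and positions come from it. The mice were grouped by their labels, 6 NC, 7 HFD and 7 SZ-A. Separate mice are replicates.

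Genes averaging 0.1 FPKM or more in the 2 groups of a comparison were fitted on log2(FPKM + 1) with limma 3.58.1 (R 4.3.3; moderated test with a mean-variance trend, 2 groups a fit) and adjusted by Benjamini-Hochberg over all genes. Fold changes are on that scale and understate changes of low genes. Whole reads were recovered from FPKM steps and exon lengths, with 95.9% to 96.3% of values within 0.01 of a whole read, and gave the depth of each library. Ratios were tested by exact two-sided permutation (SciPy 1.17.1). The script was tested on simulated data. Same-numbered mice did not deviate together in every pair (r from -0.41 to 0.58), so mice were not paired. The 10 genes and the lists were chosen with earlier results of these data known. Named are the 10 genes, Psmb5, Psmb6 and Psmb7, from the other lists of the pathway up to 3 genes of smallest adjusted p in each comparison, and the 5 genes most like the mean of the 10. Alternatives were other pseudocounts, filters, scalings and fits, and leaving out each mouse. H2-T24, Nfyb and Gzma fall outside that rule and were named after their values were seen. The sequences are RefSeq's.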

Additional observations from a re-analysis of the deposited data

Results flagged for a closer look

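Values of the 10 genes and of 4 ratios were examined for a single mouse far from its group (42 groups of values, Dixon's 95% critical value 0.625 for 6 mice and 0.568 for 7), and 2 were found, where chance gives about 1 in 20 groups. HFD replicate 2 was the lowest HFD mouse for Psmb10, at 4.83 on the log2(FPKM + 1) scale, with the other HFD mice from 5.07 to 5.25. SZ-A replicate 5 had the highest log2 ratio of Psmb10 to Psmb7, at 3.78, with the other SZ-A mice from 0.55 to 1.30.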

How the results depend on the processing

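H2-D1, Psmb8 and Psmb10 were called higher in HFD than in NC in all 24 alternative fits, Psmb9 in 14 of them. The count of 4 genes ranged from 3 to 7 when single mice were left out. A fold change above 1.5 as a further requirement left H2-D1, Psmb8 and Psmb10, and the count was 0 when a log2 fold change above 1.5 was required. With replicate number as a block it was 3, and the numbers did not pair the mice. The H2-D1 to H2-K1 difference in HFD against NC was then 0.78, above 0 in 6 of 6 same-numbered pairs. Its p was the smallest that exact sign flips of 6 pairs can give (0.0312, or 0.0938 adjusted). With 6 pairs it could pass after adjustment only if another comparison of this ratio also had a small p. In SZ-A against HFD the count was 0 under every alternative. In SZ-A against NC it was 1 with all 3 groups in the fit and 3 with array quality weights. The count of subunit ratios ranged from 0 to 2 when single mice were left out, and was 0 with the replicate block, where 6 pairs allow no exact p under 0.0312, so that this 0 is no sign of stability or its lack.

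Of 946 single values recomputed, 883 kept their direction and side of the threshold and 35 changed sign, all of them values without a call; the cause was not tested. B2m was -0.011 in HFD against NC with array quality weights, -0.24 in SZ-A against HFD with quantile normalization and -0.014 in SZ-A against NC without NC replicate 6 and SZ-A replicates 2 and 5, a setting chosen after seeing the data. Psmb9 in SZ-A against HFD was 0.0029 with median-ratio scaling, 0.076 with array quality weights, which gave 0.022 for Psmb10, and 0.050 without SZ-A replicates 2 and 5. Leaving out single mice, B2m ranged from -0.060 to 0.25 in HFD against NC and from -0.056 to 0.25 in SZ-A against NC. In SZ-A against HFD, H2-K1 ranged from -0.11 to 0.020, B2m from -0.051 to 0.067, Tap2 from -0.015 to 0.25, Psmb8 from -0.27 to 0.11, Psmb9 from -0.072 to 0.067 and Psmb10 from -0.13 to 0.058, and the log2 ratios from -0.20 to 0.33 (Psmb8 to Psmb5), -0.022 to 0.20 (Psmb9 to Psmb6) and -0.16 to 0.38 (Psmb10 to Psmb7). The lowest values, such as Nlrc5 at 28 reads, are the least precise.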
